A study of Homo sapiens with 4 samples.

Results

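Binding of the oestrogen-related receptor ERRα near 10 genes of the autophagy machinery was examined in MDA-MB-231 cells. The genes were ULK1, BECN1, GABARAPL1, GABARAPL2, MAP1LC3B, ATG4B, ATG4D, ATG5, ATG7 and SQSTM1, out of 20037 protein-coding genes on chromosomes 1 to 22, X and Y. A peak was assigned to a gene if its summit lay inside the gene or within 50 kb of it (RefSeq coordinates, GRCh38). The genes were selected on the peak positions and fold enrichments of these same lists, so their counts and heights are descriptions, without a test. By this assignment they held 20 of 14072 peaks of replicate 1, 18 of 12659 of replicate 2, and 12 of the 10059 peaks matched between the replicates. Of the matched peaks, 6 of the 5070 that passed an irreproducible discovery rate (IDR) of 0.05, called reproducible here, were at these genes.

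The series consists of 2 ERRα ChIP-seq libraries and 2 input libraries of sonicated chromatin that was not precipitated. All 4 came from MDA-MB-231, an established, invasive human breast cancer cell line, grown without any treatment named in the labels. The ERRα libraries are 2 replicates, and both of their peak lists were called against the same pair of inputs, so the lists are not independent of each other in their background. ERRα is a nuclear receptor that regulates genes of mitochondrial energy metabolism. All values describe 1 cell line, whose identity cannot be checked from peak lists. The labels print the read numbers without an exponent sign. They were read as 29 M for ERRα and 10 M for input, and the depth behind a single peak is unknown.

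Autophagy encloses cytoplasm in a double membrane and delivers it to the lysosome for breakdown. The ULK1 kinase starts the process, and BECN1 (beclin) belongs to the lipid kinase complex that marks the growing membrane. Proteins of the ATG8 family, which include MAP1LC3B and the GABARAP-like proteins, are trimmed by ATG4 proteases and joined to membrane lipid by a conjugation system with ATG7 and ATG5. Receptors such as SQSTM1 then tie cargo to the ATG8 proteins. The pathway supplies nutrients in starvation and removes damaged mitochondria.

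Reproducible ERRα summits were found inside or within 50 kb of 5 of the 10 genes, namely ATG4D, GABARAPL1, BECN1, ATG7 and MAP1LC3B. The same held for 33.7% of all protein-coding genes. At ATG4D, GABARAPL1 and BECN1 the summit was within 1 kb of an end of the gene, which was the case for 4.49% of all protein-coding genes. At ATG7 and MAP1LC3B the reproducible summits lay inside neighbouring genes, 14.7 to 44.1 kb away. The remaining 5 genes, SQSTM1, ATG4B, ATG5, GABARAPL2 and ULK1, had no reproducible summit in this range.

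Less strict lists reached more genes within 50 kb, among these 10 as among all. Matched peaks of any IDR were in range of 6 of the 10 genes, against 50.8% of all protein-coding genes, and at an end of 3, against 8.85%. Replicate 1 alone had a summit in range of 8 genes (60.0% of all) and at an end of 3 (12.2% of all). Replicate 2 alone had one in range of 8 genes (56.9% of all) and at an end of 4 (11.0% of all), where the added gene was MAP1LC3B. Of the 6 genes no longer than ULK1 (28.5 kb), 4 had a reproducible summit in range, against 31.7% of all protein-coding genes of that length. This length cut was not planned, and the count depends on it. The next longer genes, SQSTM1 (31.7 kb) and ATG4B (36.2 kb), had no reproducible summit in range.

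**Figure D1:**
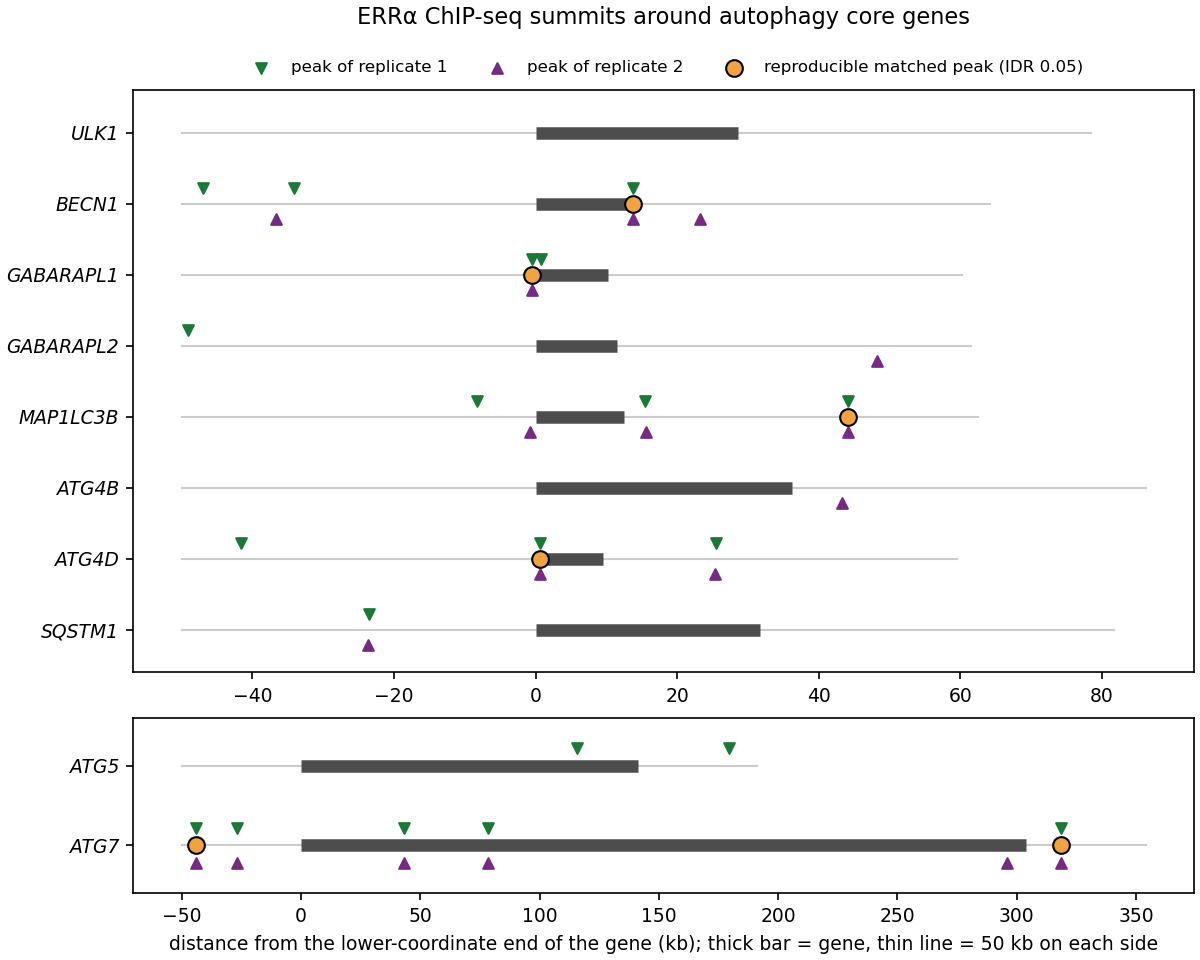
Positions of ERRα summits around the 10 genes, in kb from the lower-coordinate end of each gene, with the gene as a thick bar and 50 kb on each side as a thin line. Down-pointing triangles are peaks of replicate 1, up-pointing triangles peaks of replicate 2 and circles reproducible matched peaks, which sit at an end of BECN1, GABARAPL1 and ATG4D, and away from the gene at MAP1LC3B and ATG7.

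The strongest of these peaks was at ATG4D, which encodes a protease of the ATG4 family. ChIP signal at its summit exceeded input 69.3-fold in replicate 1 and 65.7-fold in replicate 2, a mean fold of 67.5 ± 2.54 (SD, n = 2). The peak spanned 1290 bp on chromosome 19, from 10543818 to 10545107, against a median width of 774 bp for reproducible peaks. Its summit at 10544563 was inside ATG4D (10543904 to 10553418), 659 bp from the lower-coordinate end, and the summits called in each replicate were 7 bp apart. The nearest other protein-coding gene, KRI1, was 8.52 kb away, so ATG4D was the sole protein-coding gene with an end within 1 kb. By mean fold it ranked 124 of the 5070 reproducible peaks, above 97.6% of them. It was 4.32 times as high as the next strongest of the 6 peaks, and replicate 1 gave it a −log10 q of 290, replicate 2 one of 258. Replicate 1 alone had a further weak peak 41.6 kb away (fold 4.95), inside KEAP1, which encodes a sensor of oxidative stress.

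GABARAPL1 encodes an ATG8 protein of the GABARAP group. Its peak reached a fold of 15.3 in replicate 1 and 15.9 in replicate 2 (mean 15.6 ± 0.436, SD, n = 2), which ranked 1852. It lay on chromosome 12 from 10212063 to 10212868, with the summit at 10212336, 541 bp upstream of the annotated start of the gene (10212877 to 10223128, plus strand). Replicate 1 gave it a −log10 q of 39.99 and replicate 2 one of 40.3. The replicate summits were 6 bp apart, and the nearest other protein-coding gene, TMEM52B, was 20.5 kb away. Replicate 1 alone also had a weak peak 799 bp inside the gene (fold 4.85). The 250 bases before the annotated start are shown because the matched peak runs into them and ends just short of the gene. That end is the one of replicate 1 (10212868), while the replicate 2 peak ended at 10212730. Capitals mark the 242 bases under the matched peak, on the plus strand (RefSeq, GRCh38.p14, chr12:10212627-10212876).
GABARAPL1: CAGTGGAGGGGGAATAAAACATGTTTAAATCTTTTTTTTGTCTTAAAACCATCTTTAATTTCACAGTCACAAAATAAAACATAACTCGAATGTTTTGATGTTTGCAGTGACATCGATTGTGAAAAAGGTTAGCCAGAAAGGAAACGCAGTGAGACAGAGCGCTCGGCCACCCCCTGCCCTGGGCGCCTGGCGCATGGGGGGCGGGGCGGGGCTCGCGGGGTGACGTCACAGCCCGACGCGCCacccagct

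At BECN1 the fold was 9.22 in replicate 1 and 10.2 in replicate 2, with a mean of 9.69 ± 0.662 (SD, n = 2) and a rank of 3961. Both values were below the GABARAPL1 folds. Replicate 1 gave the peak a −log10 q of 17.9, replicate 2 one of 20.1. The peak covered chromosome 17 from 42823615 to 42824368, and the gene spans 42810132 to 42824282. Its summit at 42823871 was 411 bp inside the upper-coordinate end of the gene and 8 bp downstream of the start that the RefSeq promoter table gives for BECN1, which is on the minus strand. The replicate summits were 64 bp apart and lay on either side of that start. The hairpin of the microRNA gene MIR6781 (42823880 to 42823943, minus strand) lies 9 bp from the summit, so the peak covers both. A second weak peak in replicate 2 alone, with a fold of 5.30, was 9.04 kb from BECN1 and 79 bp from the proteasome activator gene PSME3. Replicate 1 had 2 further peaks and replicate 2 had 1 further peak between 34.2 and 47.0 kb away (folds 5.24 to 5.88), at RAMP2 and VPS25. These overlapped no peak of the other replicate.

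ATG7 encodes the enzyme that activates ATG8 proteins and ATG12 for conjugation. It is the longest of the 10 genes, at 304 kb (chromosome 3, 11272397 to 11576353, plus strand), and had 5 matched peaks, of which 2 were reproducible. The stronger one had folds of 11.1 in replicate 1 and 10.6 in replicate 2 (mean 10.8 ± 0.396, SD, n = 2). It was 14.7 kb beyond the upper end of ATG7, from 11590803 to 11591731, inside VGLL4, a cofactor gene of TEAD transcription factors. The other one, with folds of 9.02 and 10.1 in that order (9.55 ± 0.742, SD, n = 2), was 44.1 kb upstream of the start, from 11227979 to 11228581, inside the histamine receptor gene HRH1. The matched peaks inside ATG7 itself, 43.1 and 78.3 kb from its start, had mean folds of 6.58 ± 1.64 and 6.07 ± 0.280 (SD, n = 2) and did not pass IDR. Another such peak, 27.0 kb upstream and also inside HRH1, came to 5.57 ± 0.456 (SD, n = 2). Replicate 2 alone had a peak with a fold of 3.08 inside the gene, 8031 bp from its upper end. Of the protein-coding genes at least as long as ATG7, 44.8% had a reproducible summit inside or within 50 kb.

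MAP1LC3B encodes LC3B, the ATG8 protein most used as a marker of autophagosomes, and lies on chromosome 16 from 87392336 to 87404774 on the plus strand. Its reproducible peak had folds of 7.81 in replicate 1 and 7.52 in replicate 2 (mean 7.66 ± 0.209, SD, n = 2), the lowest of the 6. With a rank of 5027, it was above 0.848% of reproducible peaks. The summit was 31.7 kb beyond the gene, inside ZCCHC14 (peak from 87436236 to 87436716), and the replicate summits were 1 bp apart. Closer to the gene, a matched peak at 3.07 kb, also inside ZCCHC14, had folds of 5.78 and 7.15 in that order and did not pass IDR. Near the start of MAP1LC3B the replicates had different peaks. Replicate 2 had one 749 bp upstream (fold 4.98) and replicate 1 had one 8.31 kb upstream (fold 7.10), both inside FBXO31.

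**Figure D2:**
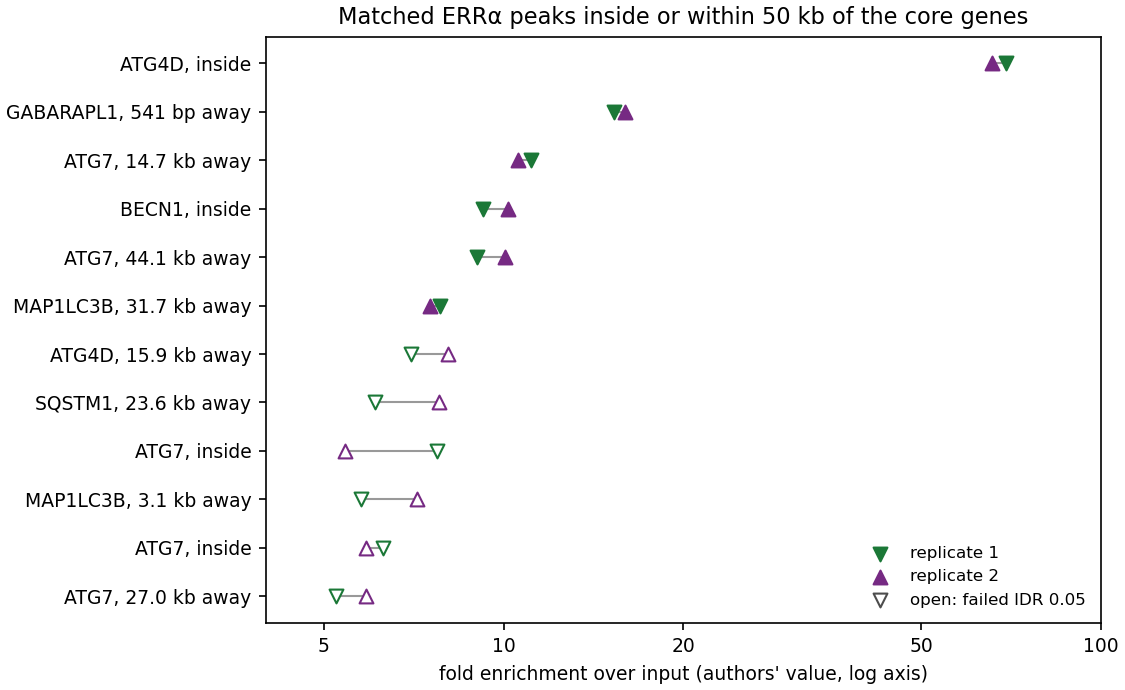
Fold enrichment over input (log axis) of the 12 matched peaks inside or within 50 kb of the genes, with replicate 1 as down-pointing and replicate 2 as up-pointing triangles and peaks that failed an IDR of 0.05 as open symbols. The ATG4D peak (69.3 and 65.7) stands to the right of all others, and the GABARAPL1 peak (15.3 and 15.9) comes next.

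The 5 genes without a reproducible summit differed in what was found around them. SQSTM1 (chromosome 5, 179806393 to 179838078), the cargo receptor also called p62, had a matched peak 23.6 kb upstream with a fold of 6.10 in replicate 1 and 7.78 in replicate 2, which did not pass IDR and was nearest to MAML1. ATG4B (chromosome 2, 241637693 to 241673857), the most active ATG4 protease on LC3, had no peak in replicate 1 and a single one in replicate 2, with a fold of 8.46, 7.17 kb beyond its upper end and inside DTYMK. This was the highest fold among the 14 replicate peaks that overlapped none of the other replicate.

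ATG5 (chromosome 6, 106184476 to 106325760), which is joined to ATG12 to form part of the conjugation machinery, had 2 peaks in replicate 1 (folds 3.66 inside the gene and 5.98 at 38.0 kb) and none in replicate 2. GABARAPL2 (chromosome 16, 75566379 to 75577881), the third ATG8 gene of the set, had 1 peak in each replicate, at different places (fold 4.05 at 49.1 kb in replicate 1, fold 4.02 at 36.8 kb in replicate 2). ULK1 (chromosome 12, 131894622 to 131923150) had no peak in any list within 50 kb. From the genes to their nearest reproducible summit it was 107 kb for SQSTM1, 108 kb for ULK1, 227 kb for ATG4B, 277 kb for GABARAPL2 and 379 kb for ATG5.

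The limits of distance and IDR decided some of these assignments. The assigned summit closest to the 50 kb limit was that of GABARAPL2 at 49.1 kb in replicate 1, and the nearest one left out was at ULK1, 53.0 kb away in each replicate. On the IDR scale, where a score of 540 corresponds to 0.05, the MAP1LC3B peak passed with 561. The next one, 15.9 kb from ATG4D and 323 bp from the cell cycle inhibitor gene CDKN2D, failed with 466 (folds 6.99 and 8.06 in replicates 1 and 2).

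At the 10 genes, 12 of the 20 peaks in replicate 1 had a counterpart in replicate 2 by at least 1 bp (60%, exact Clopper-Pearson 95% interval 36.1 to 80.9). Of the 18 in replicate 2, 12 had one in replicate 1 (66.7%, 41.0 to 86.7). Over all peaks these shares were 71.9% and 79.8%, inside both intervals. The intervals cover the number of peaks only. The unmatched peaks had folds of 3.08 to 8.46, below those of the GABARAPL1 and ATG4D peaks. Across the 6 reproducible peaks the replicates' folds differed by at most 1.12 times, and replicate 1 was higher at 3 and replicate 2 at the other 3. Passing IDR selects for such agreement.

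In height, 4 of the 6 reproducible peaks were below the median mean fold of all 5070 (12.9), and GABARAPL1 and ATG4D were above it. The median of the 6 was 10.3. Together the windows of the 10 genes spanned 1.60 Mb and held 3.75 reproducible summits per Mb, against 2.3 per Mb of the merged windows of all protein-coding genes. The rate at the 10 genes rests on 6 summits, and 3 of these lay inside another protein-coding gene.

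**Figure D3:**
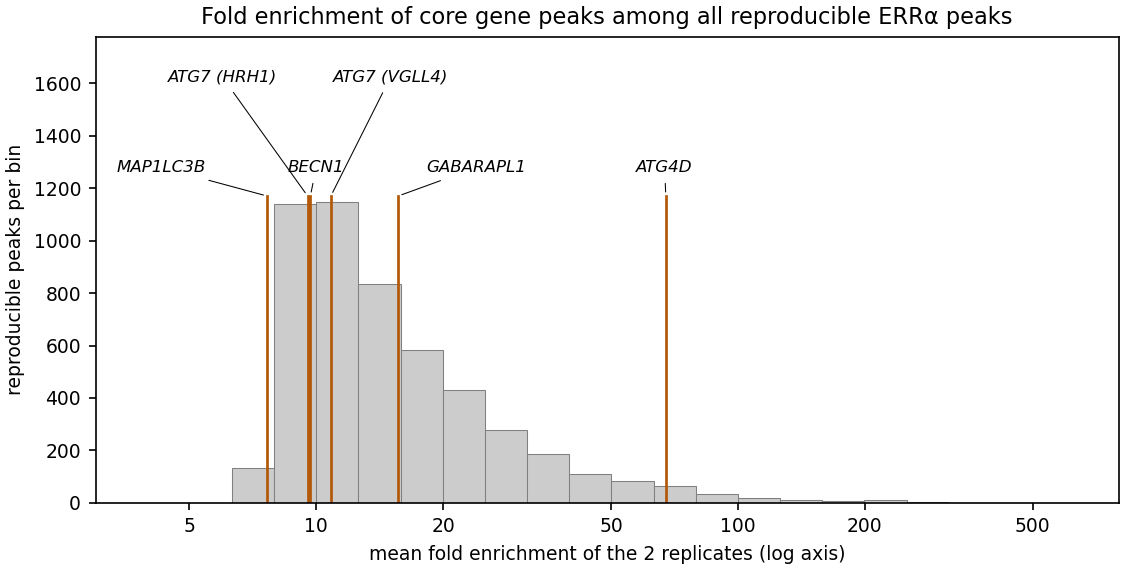
Mean fold enrichment of the 2 replicates (log axis) for all 5070 reproducible peaks as a histogram, with lines at the 6 peaks assigned to the genes and the neighbour in brackets for ATG7. BECN1, ATG7 and MAP1LC3B peaks lie below the median of 12.9, GABARAPL1 at 15.6 just above it, and ATG4D at 67.5 in the upper tail.

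ERRα binds the ERR response element, TNAAGGTCA, which extends the nuclear receptor core AGGTCA. Promoter sequences (250 bases before to 50 after an annotated start) were at hand for 9 of the 10 genes, in 12 windows, all but ATG4D. Both strands were searched. No window of the 9 genes held TNAAGGTCA, and neither did any of 68 windows of 50 other autophagy genes. Across 22199 windows of protein-coding genes 0.671% held it, made up of 20 of the 166 windows with a reproducible summit and 0.585% of the rest. BECN1 had the sole reproducible summit inside a promoter window of the 9 genes. The sequence under the other summits was not used here, and the GABARAPL1 summit lies before its window.

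The shorter core AGGTCA, contained in the longer motifs, was present in 2 of the 12 windows (16.7%), at BECN1 and SQSTM1. It was in 7 of the 68 other autophagy windows (10.3%), 11.9% of all windows and 56.6% of those with a summit. At BECN1 it began 51 bases upstream of the annotated start, on the strand of the gene and with its middle 56 bp from the summit. The stretch shown lies within the MIR6781 hairpin. SQSTM1 held the 7-base form AAGGTCA (3.22% of all windows and 39.8% of those with a summit) on the opposite strand, 204 bases upstream of its first annotated start. The nearest reproducible summit to that copy was 106 kb away. The pair is shown because BECN1 has a core with a summit beside it and SQSTM1 a longer copy without a peak in either replicate there. Sequences run 5′ to 3′ on the strand of the gene with the motif in capitals (RefSeq, GRCh38.p14, chr17:42823913-42823942 on the minus strand and chr5:179806178-179806206 on the plus strand).
BECN1: accccgggccggAGGTCAagggcgtcgctt
SQSTM1: cgggacctctgTGACCTTgggtctctgcc

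Other genes of the pathway, 58 in all, were taken by their textbook roles. Of these, 21 (36.2%) had a reproducible summit inside or within 50 kb, against 33.7% of all protein-coding genes, and 7 (12.1%) had one within 1 kb of a gene end, against 4.49%. Those 7 were TEX264, NCOA4, RAB7A, ZKSCAN3, ATG2A, RB1CC1 and NBR1. TEX264, a receptor for autophagy of the endoplasmic reticulum, had a fold of 16.8 in replicate 1 and 16.3 in replicate 2 (mean 16.5 ± 0.350, SD, n = 2) at 671 bp inside the gene. NCOA4, the receptor that delivers ferritin to autophagosomes, had 14.4 and 11.8 (13.1 ± 1.88, SD, n = 2) at 118 bp upstream of its start. RAB7A, a GTPase of late endosomes, had 11.4 and 11.3 (11.3 ± 0.0968, SD, n = 2) at 361 bp inside the gene. The remaining 4 were ZKSCAN3, a repressor of autophagy genes (10.5 ± 0.277), the lipid transfer gene ATG2A (9.98 ± 2.04), RB1CC1, a partner of ULK1 (9.60 ± 1.94), and the cargo receptor gene NBR1 (8.59 ± 0.556). The ATG2A summit was at the end of the gene away from its start, 35 bp outside it. The ZKSCAN3 summit was also inside ZSCAN31, and the NBR1 summit was within 1 kb of a second gene, BRCA1, at 146 bp.

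The 58 genes were also ranked by the highest reproducible peak of each. Among the first 10 genes in that ranking, this peak was more than 1 kb from either end of the gene at all but TEX264. The highest was 40.04 kb from NBR1 (fold 95.5 in replicate 1 and 105 in replicate 2, mean 100.3 ± 6.81, SD, n = 2), one of 5 reproducible summits 22.1 to 40.04 kb beyond that gene, all nearer to CCDC200. MAP1LC3B2, a copy of MAP1LC3B on chromosome 12, had a single peak 7.28 kb upstream of its start, with folds of 42.0 and 47.6 (44.8 ± 4.02, SD, n = 2) and the nearest other protein-coding gene 158066 bp away. TFEB, the transcription factor that controls lysosome and autophagy genes, had 5 reproducible summits, the highest at 18.2 ± 1.89 (SD, n = 2) inside the gene. The other TFEB summits included those nearer to MDFI, PGC and PRICKLE4. The highest peaks of the other genes among these 10 were at ATG2B (24.96 ± 3.25 at 46.6 kb), RAB7A (24.2 ± 5.12 at 3.74 kb), BNIP3L (21.6 ± 1.42, inside the gene), AMBRA1 (20.2 ± 1.09 at 7.77 kb), TEX264 (16.5 ± 0.350), RB1CC1 (15.9 ± 2.09, inside the gene) and VMP1 (15.4 ± 2.52, inside the gene). Of these, the ATG2B summit was inside AK7 and the AMBRA1 summit inside CHRM4.

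Counts by role are small and are read against the shares of all protein-coding genes, 33.7% in range and 4.49% at an end. By role, 4 of 7 ATG8 genes and 4 of 8 genes of the BECN1 lipid kinase complex had a reproducible summit in range when the 10 genes and the 58 were counted together. The same was true of 6 of 13 cargo receptors, 5 of 10 genes of membrane supply, 2 of 7 conjugation genes and 2 of 6 genes of transcriptional control. The ULK1 group had 1 of 5, the ATG4 proteases 1 of 4 and the genes of fusion with the lysosome 1 of 8. Not every summit in range was nearest to the gene counted. Those of UVRAG, AMBRA1 and RUBCN in the lipid kinase complex were all nearer to other genes. Among the ATG8 genes, the MAP1LC3B summit was inside ZCCHC14 and the GABARAP summit inside ACADVL. At gene ends the cargo receptors, the role with the most genes, had 3 of 13, and each other role had 1 or 0. In all, 26 of 68 genes had a summit in range, near the share of all protein-coding genes, and 10 had one at an end. The 10 core genes, which were selected on these peak lists, made up 5 of the 26 and 3 of those at an end. The 58 alone had 21 in range and 7 at an end.

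**Figure D4:**
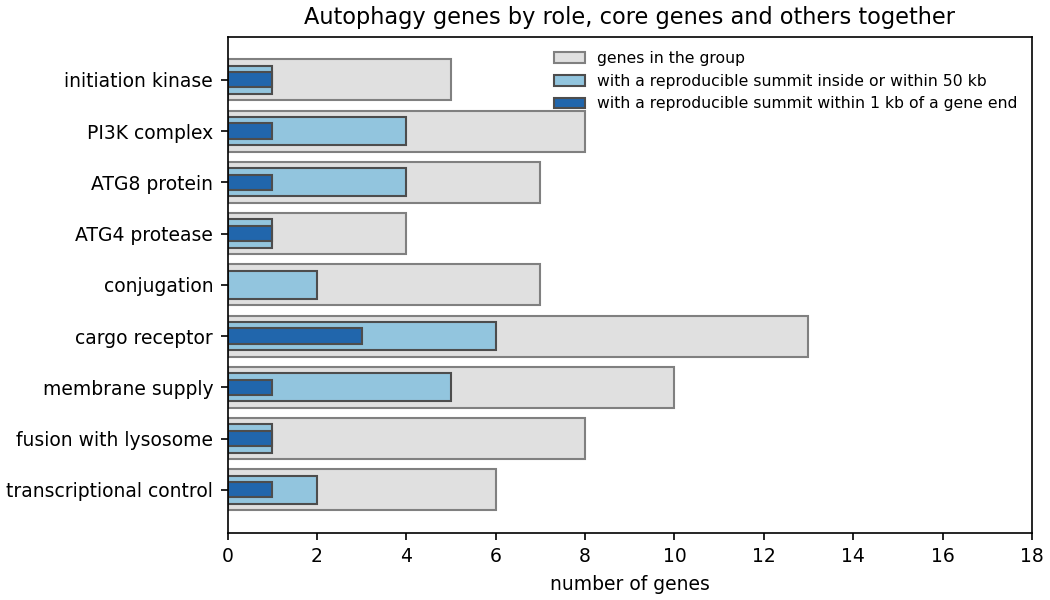
Number of genes per role (wide grey bars), with a reproducible summit inside or within 50 kb (light blue) and within 1 kb of a gene end (dark blue), over the 10 core genes and 58 others. The 10 were selected on these peak lists, and a summit in range can be nearer to a neighbouring gene. Cargo receptors, the role with the most genes, have 6 of 13 in range and 3 at an end, and ATG8 genes have 4 of 7 in range and 1 at an end, where all protein-coding genes have 33.7% in range and 4.49% at an end.

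The share of genes with a summit depended on the distance allowed. Inside the gene it was 20% of the 10 genes (BECN1 and ATG4D), 20.7% of the 58 and 11.5% of all protein-coding genes. Within 1 kb and within 5 kb it was 30% of the 10 genes and 22.4% of the 58, against 13.4% and 15.8% of all. Within 10 kb it was 30% of the 10 genes, 25.9% of the 58 and 18.3% of all, and within 25 kb 40% of the 10 genes, 31.0% of the 58 and 25.1% of all. Within 100 kb the 10 genes and the 58 were both at 50%, against 46.4% of all, and within 200 kb they were at 70% and 70.7%, against 61.5%. Each of the 10 genes counts for 10 percentage points, so these differences rest on 1 or 2 genes. Counting annotated starts only, 2 of the 9 genes with a promoter entry had a summit within 1 kb (GABARAPL1 and BECN1), against 4.51% of the 15843 protein-coding genes with an entry.

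**Figure D5:**
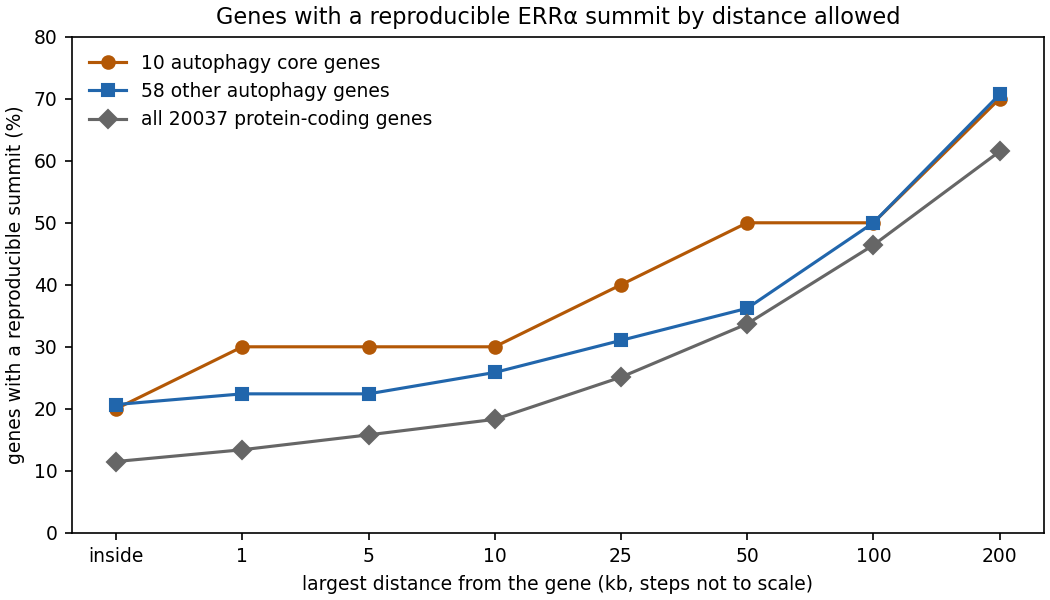
Percentage of genes with a reproducible summit inside the gene or within the distance on the x axis (kb, steps not to scale) for the 10 core genes, 58 other autophagy genes and all 20037 protein-coding genes. At 1 to 10 kb the core genes are at 30% and all protein-coding genes at 13.4% to 18.3%, and at 100 kb the 3 lines lie between 46.4% and 50%.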

How the data were processed

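ERRα ChIP-seq peak lists of 2 replicates, each called against both inputs, and a list of peaks matched by IDR were used as deposited. Per the submitters' processing notes, the tools were MACS2 2.2.6, Bowtie2 2.3.5, Trim Galore 0.6.5, deepTools, SAMtools and Picard on hg38. Caller and aligner options were not given in the sources used here. Fold enrichment over input at the summit is the value the authors deposited per peak, and it was taken as given. The authors' −log10 q per peak served as a filter in an alternative, and the deposited IDR score (at least 540 for IDR 0.05) defined reproducible peaks. Summits are start plus offset, written from 1, on chromosomes 1 to 22, X and Y. 371, 358 and 272 peaks of replicate 1, replicate 2 and the matched list on other contigs were left out.

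Genes and promoter sequences came from RefSeq tables of GRCh38.p14, and 9 of 10 genes and 50 of 58 others had a promoter entry. The genes and lists were chosen with earlier results of these data known. All 10 genes are named, with every reproducible peak. Of the 58, those with a reproducible summit at a gene end and the 10 genes with the highest peak by mean fold are named. UVRAG, RUBCN and GABARAP are named as well, for the place of their summits in the counts by role. Assignment was checked on simulated summits at 200 genes, placed at the middle of the gene or beyond its upper-coordinate end, not below the lower one. Python 3.11.15, pandas 2.3.3 and scipy 1.17.1 were used. No genome sequence was used, so motifs were searched in promoter windows alone. Intervals cover counting error only. No test was run, and p-values are therefore absent.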

Additional observations from a re-analysis of the deposited data

How the results depend on the processing

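The count of 5 genes with a summit in range was 4 to 6 with all matched peaks, an IDR of 0.01, a −log10 q of at least 5 or distances of 25 and 100 kb, and 3 with 10 kb. In a single replicate's list it was 8 in each. The 3 genes with a summit at an end became 1 (BECN1) with 500 bp, and 3 to 4 in the lists of single replicates. For the other autophagy genes the counts in range were 34 with all matched peaks and 35 to 37 in single replicates, and at ends 13 with all matched peaks, 4 at an IDR of 0.01 and 13 to 14 in single replicates. The share of all protein-coding genes in range was 50.8% with all matched peaks, 18.3% with 10 kb and 56.9% to 60% in single replicates. At ends it was 8.85%, 2.82% with 500 bp, 9.28% with 5 kb and 11% to 12.2% in single replicates. At an IDR of 0.01 these shares were 27.9% in range and 3.63% at ends. Summits in range numbered 12 with all matched peaks, 3 with 10 kb and 18 to 20 in single replicates. Genes with a motif numbered 0 for TNAAGGTCA, 1 for AAGGTCA and 2 for AGGTCA, the last chosen after seeing the data. With 2 replicates, leaving one out cannot move a mean fold beyond its SD, so this says nothing about the stability of the 5 fold enrichments. With 10 kb MAP1LC3B and ATG7 had no fold. Larger peak sets and shorter distances change these counts by construction. The other 52 of 78 alternatives, these folds included, stayed within 1.5 times or within the error.

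No paired analysis was possible because no result comes from a test and the inputs have no peak list of their own. With 2 replicates, an SD is itself imprecise, and read depth per peak is unknown.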
